A study of Homo sapiens with 18 samples.

Results

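The 5 genes described here, STAP1, SLCO3A1, IGF2BP2, CA2 and SLC7A2, were chosen by their array signal, which differed between the TG2 knockout and the wild-type line of NB4 cells in several time groups. They are 5 of the 18417 genes that had a probe set of their own among 33297 probe sets, and each is read by a single probe set (8095343, 7986214, 8092552, 8147132 and 8144786, in that order). Since the difference between the lines chose the genes, it is given as a description with no test. The response to all-trans retinoic acid (ATRA), averaged over both lines, was not part of that rule and was tested. The genes were, however, chosen with earlier results of these data known.

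NB4 is an established human line from acute promyelocytic leukaemia that matures towards neutrophil-like cells when ATRA binds its retinoic acid receptors. The gene TGM2 encodes TG2, an enzyme (transglutaminase 2) that crosslinks proteins. Total RNA was hybridised to 18 Affymetrix whole-transcript arrays, 3 biological replicates in each of 6 groups. The groups were TG2 knockout cells left untreated, TG2 knockout cells given 1 µM ATRA for 48 h and for 72 h, and wild-type cells left untreated or given the same dose for 48 h and for 72 h. How the knockout was made, which part of TGM2 it alters and whether the line is 1 clone is not stated in the labels. The titles of its samples say knockout, but the short codes beside them read KD. With a single modified line set against a single wild-type line, a loss of TG2, whole or partial, and any other difference between the lines cannot be told apart.

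STAP1 is an adaptor protein that binds tyrosine kinases of haematopoietic cells, among them the receptors KIT and CSF1R. IGF2BP2 is an RNA-binding protein that holds target messages in a stable state and reads m6A, a methyl mark on RNA. CA2 is the cytosolic carbonic anhydrase that interconverts carbon dioxide and bicarbonate, and in myeloid cells it is best known from acid secretion by osteoclasts. SLCO3A1 is an organic anion transporter whose substrates include prostaglandins, and SLC7A2 carries arginine and other cationic amino acids into cells, feeding nitric oxide synthesis, arginase and polyamine synthesis.

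The 250 bases before the start sites of STAP1, SLCO3A1 and IGF2BP2 are shown because the 3 genes fell together under ATRA while differing in their direction between the lines. They come from RefSeq on GRCh38.p14, from the start site farthest upstream where 2 were listed (SLCO3A1 and IGF2BP2). The windows are chr4:67558477-67558726 on the plus strand for STAP1, chr15:91853458-91853707 on the plus strand for SLCO3A1, and chr3:185825043-185825292 on the minus strand for IGF2BP2. Each is printed 5′ to 3′ along its gene. Capitals mark matches, on either strand, to the core bound by the myeloid factor PU.1 (GAGGAA) and to the GC box of Sp1-type factors (GGGCGG).
STAP1: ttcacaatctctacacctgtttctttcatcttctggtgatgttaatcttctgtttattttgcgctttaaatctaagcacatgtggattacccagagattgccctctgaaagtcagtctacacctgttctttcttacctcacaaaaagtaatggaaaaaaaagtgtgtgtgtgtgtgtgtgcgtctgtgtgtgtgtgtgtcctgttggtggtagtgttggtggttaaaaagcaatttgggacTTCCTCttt
SLCO3A1: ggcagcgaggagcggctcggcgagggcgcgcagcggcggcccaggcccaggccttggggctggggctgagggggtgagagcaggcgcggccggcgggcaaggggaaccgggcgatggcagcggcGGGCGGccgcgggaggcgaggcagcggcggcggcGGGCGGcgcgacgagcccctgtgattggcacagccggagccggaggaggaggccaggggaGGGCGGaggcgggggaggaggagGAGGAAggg
IGF2BP2: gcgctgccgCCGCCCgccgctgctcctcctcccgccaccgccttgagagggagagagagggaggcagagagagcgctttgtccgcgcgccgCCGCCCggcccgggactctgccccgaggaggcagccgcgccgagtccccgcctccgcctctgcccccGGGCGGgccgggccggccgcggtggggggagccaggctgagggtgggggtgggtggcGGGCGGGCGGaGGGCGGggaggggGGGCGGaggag
The STAP1 window had a GC content of 40.0%, with 2 CpG dinucleotides. The SLCO3A1 and IGF2BP2 windows had GC contents of 80.4% and 81.6%, with 32 CpG dinucleotides each. Over the 35116 RefSeq windows of the same length, the median GC content was 58.0% and the median number of CpG dinucleotides was 11. Both strands were also searched for the 6-base core of retinoic acid receptor sites spelled as AGGTCA, with a G in front as GGGTCA, with a middle T as AGTTCA, or with both changes as GGTTCA, and none of the 3 windows held a match, against 33.8% of all windows. The PU.1 core matched once each in STAP1 and SLCO3A1 and was present in 23.6% of all windows. GC boxes, counted with overlaps, numbered 3 in SLCO3A1, 7 in IGF2BP2 and 0 in STAP1, and 42.6% of all windows held at least 1. No promoter is printed for CA2 or SLC7A2.

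The targeted transcript itself rose under ATRA in both lines, at 48 h by 4.56 ± 0.19 in knockout and by 5.84 ± 0.19 in wild-type cells (log2 signal, SE, adjusted p = 1.21e-10 and 8.54e-12 by limma). TGM2 averaged 6.39 ± 0.11 in untreated knockout cells and 6.43 ± 0.17 in untreated wild-type cells (log2 signal, SD, n = 3 each). At 48 h it averaged 10.95 ± 0.37 in knockout and 12.27 ± 0.18 in wild-type cells, and at 72 h 11.24 ± 0.37 in knockout and 12.37 ± 0.18 in wild-type cells. Knockout signal was thus 40.2% of wild-type at 48 h (adjusted p = 0.0345 by limma) and 45.7% at 72 h (adjusted p = 0.0267), while untreated cells differed by −0.04 (adjusted p = 1). The TGM2 call was not stable: it was lost in 16 of 28 alternatives at 48 h (adjusted p of 0.00259 to 0.997) and in 7 of 28 at 72 h (0.0102 to 0.313), among them the fit of only the compared arrays and the one with array weights. A probe set outside the altered stretch would not register a knockout, and a partial loss of transcript would also leave signal. These cannot be told apart here, so TGM2 signal checks the labels only in part.

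Of the marker lists, 6 of 9 measured myeloid markers lay above the 75th percentile of probe sets in each group, though not the same 6 in untreated and ATRA-treated cells. In any group, 0 of the T cell, B cell, erythroid or fibroblast markers did. The mean of the myeloid list ran from 9.36 to 9.40 over untreated knockout arrays and from 9.21 to 9.25 over untreated wild-type arrays, and from 8.99 to 9.37 over all ATRA arrays of both lines. CTSG, the neutrophil serine protease cathepsin G, had the only unadjusted p under 0.05 of that list in untreated cells (difference of 0.65 ± 0.19, adjusted p = 1). It averaged 10.23 ± 0.06 in untreated knockout and 9.58 ± 0.04 in untreated wild-type cells (SD, n = 3 each). Here and below, the SE and p of a difference come from 1 spread per probe set, shared by all 6 groups. For untreated cells that spread is mostly too wide, so a missing call does not show that the lines were alike. For the line differences at 48 and 72 h it is mostly too narrow, so their SE and p are mostly too small. The part of the CTSG gap in the differences described below was not tested. Replicates were closer in untreated cells, where the median SD of a probe set was 0.0985 in knockout and 0.0757 in wild-type cells, than under ATRA, where it ran from 0.215 to 0.243. On the first principal component (57.1% of the variance) 4 ATRA arrays lay nearer the untreated ones than the others did. They were knockout 48 h replicates 1 and 3, knockout 72 h replicate 2 and wild-type 48 h replicate 1, at positions of 17.5 to 31.2, against 46.3 to 56.6 on the other ATRA arrays. Where leaving them out added or ended a call for one of the 5 genes, both values are given. Leaving them out keeps 1 knockout array at 48 h, and the fit then lends it the spread of the other groups.

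STAP1, the kinase adaptor, was brighter in knockout than in wild-type cells at every time. In untreated cells its log2 signal was 6.66, 6.44 and 6.42 on the knockout arrays, against 5.15, 5.10 and 5.26 on the wild-type arrays. All knockout arrays stood at least 1.16 above the highest wild-type array. At 48 h of ATRA the signal was 5.42, 5.22 and 5.07 in knockout cells, against 4.51, 4.93 and 4.63 in wild-type cells, and the gap between the nearest arrays narrowed to 0.14. At 72 h it was 5.09, 5.88 and 5.46 in knockout cells, against 4.11, 4.16 and 4.36 in wild-type cells, again without overlap. The knockout minus wild-type difference was 1.34 ± 0.18 untreated, 0.55 ± 0.18 at 48 h and 1.27 ± 0.18 at 72 h (SE), or 2.53-, 1.46- and 2.41-fold. The difference was 0.79 ± 0.25 smaller at 48 h than in untreated cells, and 0.07 ± 0.25 smaller at 72 h. STAP1 was dim in wild-type cells, at percentile 32.6 of all probe sets untreated, 23.0 at 48 h and lower still at 72 h, and no detection call was used, so these folds are not shown to rest on signal above background. In order of level, untreated knockout cells came first, knockout cells at 72 h, knockout cells at 48 h and untreated wild-type cells overlapped one another in the middle, and wild-type cells at 48 h and then at 72 h came last.

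IGF2BP2, the m6A reader, was brighter in knockout cells, and with all arrays kept its difference was larger at each later time. Untreated knockout arrays read 8.33, 8.23 and 7.99, against 7.13, 7.17 and 7.30 in untreated wild-type. After 48 h the knockout arrays read 7.28, 7.97 and 7.71, against 6.59, 6.44 and 6.55 in wild-type, and after 72 h 7.85, 8.04 and 7.78 in knockout, against 6.63, 6.66 and 6.07 in wild-type. The lines did not overlap at any time, and ATRA-treated knockout cells stayed at or above the level of untreated wild-type cells, with only knockout 48 h replicate 1 (7.28) inside the untreated wild-type range. The difference was 0.98 ± 0.18 untreated, 1.13 ± 0.18 at 48 h and 1.44 ± 0.18 at 72 h, or 1.98-, 2.18- and 2.71-fold. The difference was 0.45 ± 0.25 larger at 72 h than in untreated cells, less than 2 standard errors. In order of level, the 3 knockout groups came first with overlapping neighbours, then untreated wild-type cells, and last wild-type cells at 48 and 72 h, which overlapped. The order of the line differences was less sure. It was 0.31 ± 0.25 larger at 72 h than at 48 h. Without the 4 arrays named above, the 48 h difference was 1.475, so the order of 48 and 72 h turned on which arrays were kept.

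CA2, the carbonic anhydrase, was brighter in knockout cells by a similar amount at every time, at lower levels under ATRA in both lines. The untreated arrays read 8.77, 9.09 and 8.86 in knockout and 8.29, 8.16 and 8.17 in wild-type cells. At 48 h they read 6.91, 6.98 and 6.73 in knockout and 5.77, 6.03 and 6.20 in wild-type cells, and at 72 h 6.66, 7.08 and 6.81 in knockout and 6.05, 5.95 and 5.90 in wild-type cells. Every knockout array was above every wild-type array of its time, with gaps of 0.48, 0.53 and 0.61. The difference was 0.70 ± 0.14 untreated, 0.87 ± 0.14 at 48 h and 0.88 ± 0.14 at 72 h, or 1.62-, 1.83- and 1.84-fold. The levels formed 2 tiers, with both lines untreated on top and both ATRA times of a line overlapping each other below.

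SLCO3A1, the organic anion transporter, was the only gene of the 5 that was dimmer in knockout cells. Its untreated arrays read 7.69, 7.67 and 7.61 in knockout and 8.82, 8.80 and 8.84 in wild-type cells. At 48 h they read 6.89, 6.84 and 7.11 in knockout and 7.64, 7.57 and 7.87 in wild-type cells, and at 72 h 7.10, 6.80 and 7.12 in knockout and 7.72, 7.58 and 7.37 in wild-type cells. The lines were apart at each time, but the gap shrank, at 1.11, 0.46 and 0.25. The difference was −1.16 ± 0.13 untreated, −0.75 ± 0.13 at 48 h and −0.55 ± 0.13 at 72 h, leaving knockout cells at 44.6%, 59.6% and 68.3% of wild-type. It was 0.61 ± 0.18 nearer to 0 at 72 h than in untreated cells. Untreated knockout cells, at 7.66 ± 0.04, overlapped with ATRA-treated wild-type cells, which averaged 7.69 ± 0.16 at 48 h and 7.56 ± 0.18 at 72 h (SD, n = 3 each).

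SLC7A2, the cationic amino acid transporter, differed little between untreated lines and most at 72 h. Untreated arrays read 9.82, 9.84 and 9.86 in knockout cells, against 9.65, 9.66 and 9.73 in wild-type cells, separate by 0.09. At 48 h the knockout arrays read 8.89, 7.68 and 9.04, against 7.79, 7.78 and 7.42 in wild-type, and the lines overlapped. Knockout replicate 2 lay within the wild-type range, while replicates 1 and 3 lay above it. On the first principal component replicate 2 stood at 55.5, and replicates 1 and 3, both among the 4 arrays named above, stood at 31.2 and 31.1, nearer to untreated cells. The part of that position in the 48 h difference was not tested. At 72 h the arrays read 8.95, 8.92 and 9.16 in knockout and 7.14, 7.86 and 7.53 in wild-type cells, a gap of 1.06. The difference was 0.16 ± 0.26 untreated, 0.87 ± 0.26 at 48 h and 1.50 ± 0.26 at 72 h, and it was 1.34 ± 0.37 larger at 72 h than in untreated cells. The SE is the shared one and does not show how the spread varied with time. The SD was 0.02 in knockout and 0.04 in wild-type cells untreated, but 0.75 in knockout and 0.21 in wild-type cells at 48 h. The 48 h value turned on which arrays were kept: it was 0.08 without the 4 arrays and 1.30 without knockout replicate 2 alone. At 72 h it ran from 1.315 to 1.675 over all alternatives.

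**Figure D1:**
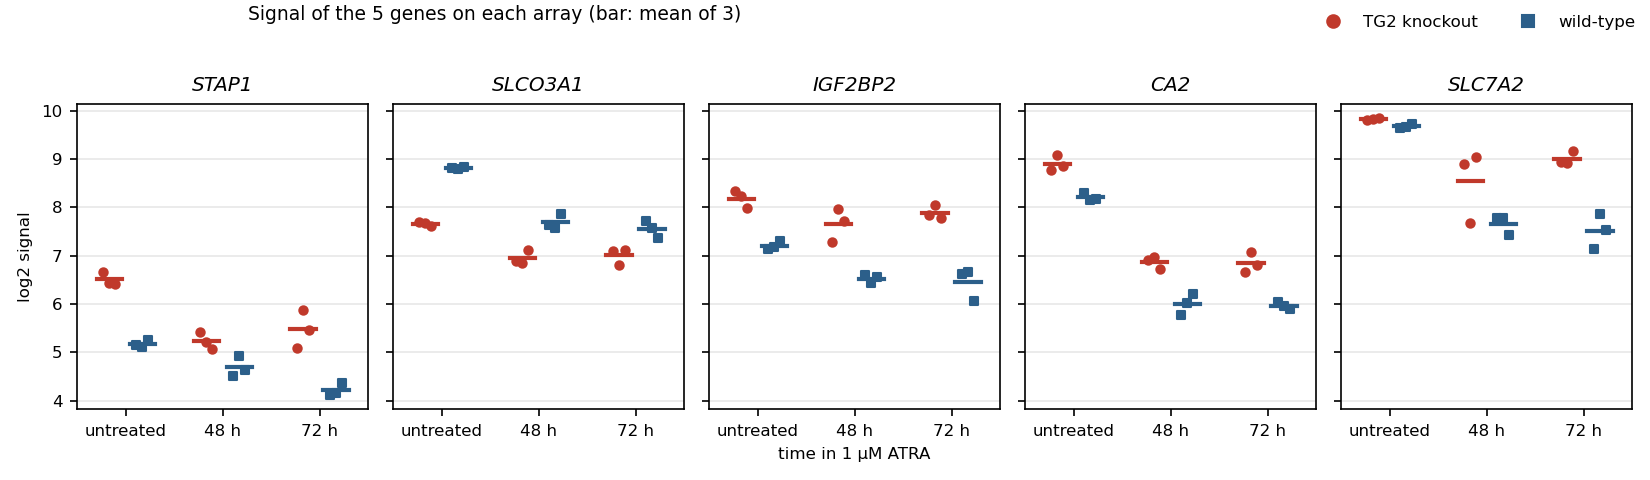
The log2 signal of each gene (vertical axis) on each of the 18 arrays, untreated and after 48 and 72 h in 1 µM ATRA, with TG2 knockout arrays as red circles left of wild-type arrays as blue squares and bars at the means of 3. In 4 panels the knockout and wild-type arrays are apart at every time, and in the SLC7A2 panel the 48 h knockout array at 7.68 lies among wild-type arrays.

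In 4 of the 5 genes the lines did not overlap at any of the 3 times, and in SLC7A2 they were apart untreated and at 72 h. Among all probe sets, 18.1% were without overlap between untreated lines, 6.76% at 48 h and 11.6% at 72 h, and 0.225% (75 probe sets) were so at all 3 times with the same sign. These shares are given as background only, since the same contrasts chose the genes. By size of the untreated difference, STAP1, SLCO3A1, IGF2BP2, CA2 and SLC7A2 ranked 6, 13, 25, 127 and 7344 of 33297 probe sets. At 48 h the same genes ranked 1522, 673, 179, 428 and 418, and at 72 h 183, 2394, 120, 680 and 103. Untreated arrays have the smaller spread given above, so ranks at different times are not a comparison of size. With all arrays kept, IGF2BP2 and CA2 ranked highest untreated but had their largest differences at 72 h.

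**Figure D2:**
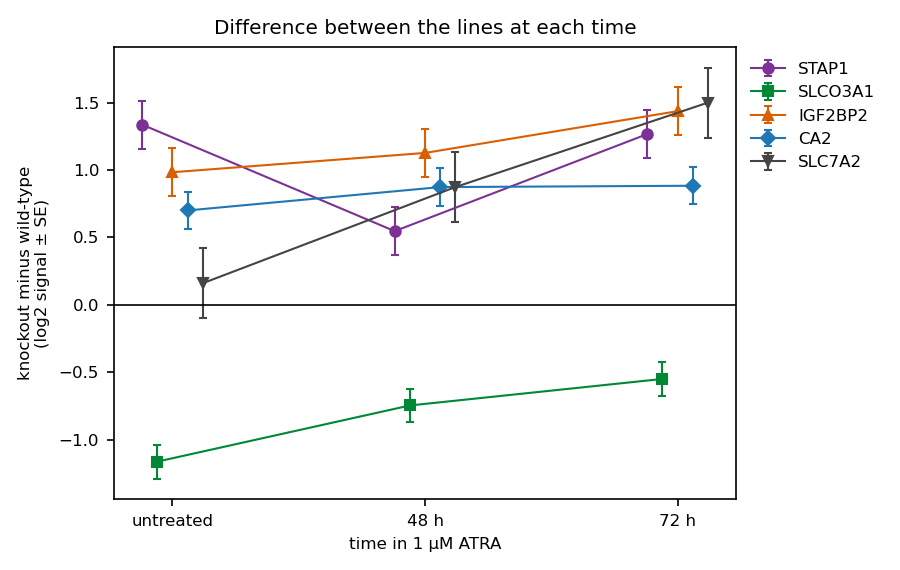
Knockout minus wild-type difference of log2 signal (vertical axis, bars: SE of the fit) for the 5 genes, untreated and after 48 and 72 h in 1 µM ATRA. SLC7A2 runs through 0.16, 0.87 and 1.50, SLCO3A1 comes nearer to 0 through −1.16, −0.75 and −0.55, and STAP1 has its smallest value, 0.55, at 48 h.

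All 5 genes were lower under ATRA than in untreated cells. The labels name no untreated culture at 48 or 72 h, so ATRA and time in culture cannot be told apart, here or in the other ATRA changes. Averaged over both lines, CA2 fell the most, by 2.12 ± 0.10 at 48 h and by 2.15 ± 0.10 at 72 h (SE), to 23.0% and 22.6% of untreated signal (adjusted p = 8.72e-11 and 6.70e-11 by limma). SLC7A2 fell by 1.66 ± 0.18 at 48 h and by 1.50 ± 0.18 at 72 h, to 31.6% and 35.4% (adjusted p = 1.36e-06 and 3.99e-06). Thus the acid-base enzyme and the arginine carrier had the largest drops. SLCO3A1 fell by 0.92 ± 0.09 and 0.96 ± 0.09 (adjusted p = 3.03e-07 and 1.79e-07), and STAP1 by 0.88 ± 0.13 and 0.995 ± 0.13 (adjusted p = 2.22e-05 and 5.50e-06). IGF2BP2 fell least, by 0.60 ± 0.12 at 48 h and by 0.52 ± 0.12 at 72 h (adjusted p = 0.000704 and 0.00206). All 5 were called lower at both times, where 24.8% of all probe sets were called lower at 48 h and 25.2% at 72 h, and 56.9% and 59.7% in either direction. Over the 5 genes the median was −0.92 and −0.995, against 0.12 and 0.135 over all probe sets.

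The fall was seen on nearly every array. In each line and at each time, all 3 ATRA arrays lay below all 3 untreated arrays for every gene, except IGF2BP2 in knockout cells at 72 h, where 2 of 3 did. Of all probe sets, 18.5% lay below untreated in both lines at both times. Between the lines, as a description, SLC7A2 moved under ATRA by −0.83 ± 0.26 in knockout and −2.17 ± 0.26 in wild-type cells at 72 h. IGF2BP2 moved by −0.29 ± 0.18 in knockout and −0.75 ± 0.18 in wild-type cells, and SLCO3A1 by −0.65 ± 0.13 in knockout and −1.26 ± 0.13 in wild-type cells. STAP1 moved by −1.27 ± 0.18 in knockout and −0.48 ± 0.18 in wild-type cells at 48 h, but by −1.03 ± 0.18 and −0.96 ± 0.18 at 72 h. The changes in the lines differed by less than 1 standard error for CA2 at both times, for IGF2BP2 at 48 h and for STAP1 at 72 h. Array signal is a share of the RNA on the array, so less transcript per cell and a changed mix of cell states cannot be told apart.

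**Figure D3:**
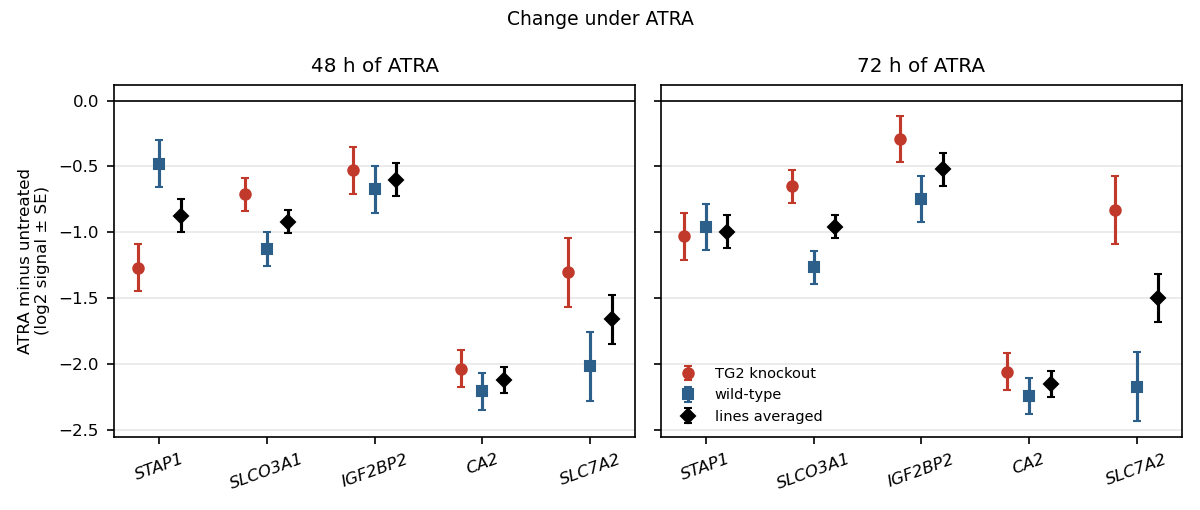
ATRA minus untreated change of log2 signal (vertical axis, bars: SE of the fit) at 48 h (left) and 72 h (right) for the 5 genes in knockout cells (red circles), wild-type cells (blue squares) and averaged over the lines (black diamonds). All averages lie below 0, lowest for CA2 at −2.12 and −2.15 and nearest to 0 for IGF2BP2 at −0.60 and −0.52.

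Between 48 and 72 h no further change was called. The 72 h minus 48 h change was −0.12 for STAP1, −0.04 for SLCO3A1, 0.08 for IGF2BP2, −0.03 for CA2 and 0.16 for SLC7A2, with adjusted p between 0.814 and 0.950. No probe set was called by limma (0 of 33297), and 2646 (7.95%) had an unadjusted p under 0.05. Without the 4 arrays named above the SLC7A2 change was 0.64 and was called (adjusted p = 0.0222), as were 8.18% of all probe sets and 11 of 115 genes of the lists below (9.57%).

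With each time's mean taken off, the 5 genes varied over the 18 arrays as follows, as a description, since all points share the arrays and the line difference that chose the genes. CA2 and IGF2BP2 had a Pearson r of 0.92, CA2 and STAP1 0.88, and STAP1 and IGF2BP2 0.85. SLCO3A1 ran opposite, at −0.91 with STAP1 and −0.86 with CA2. SLC7A2 was the loosest, with r of 0.64 to 0.69 with STAP1, IGF2BP2 and CA2. Beyond the 5, the nearest profiles were KIF21A for STAP1 (0.92), THAP4 and GOLIM4 for IGF2BP2 (0.90 and 0.88), MREG for CA2 (0.84), ZYX, THEMIS2 and ICAM3 for SLCO3A1 (0.83, 0.82 and 0.80), and TAF4B, RLIG1 and PIGU for SLC7A2 (0.95, 0.93 and 0.91). MREG was also near STAP1 (0.85). TAF4B, a subunit of the basal transcription factor TFIID, differed between the lines by −0.11 untreated, 0.45 at 48 h and 0.68 at 72 h, also with its largest difference at 72 h.

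Other genes of the pathways were counted under ATRA. For 9 lists of related genes, counts of called members at 72 h are set beside 34.5% of all probe sets called higher and 25.2% called lower (32.1% and 24.8% at 48 h). The lists were not tested against each other or against the background. Around STAP1, 5 of 15 other kinase partners were higher and 2 lower. SYK, a kinase of immune receptors, rose by 0.61, and TEC, a kinase of which STAP1 is a known substrate, fell by 0.85, as did PLCG2, a phospholipase, by 0.555. The kinase receptors that STAP1 binds showed values of 0.36 for CSF1R (adjusted p = 0.0434) and 0.18 for KIT (not called). The CSF1R call was lost with quantile normalization (adjusted p = 0.0624) and with median centring (0.0733). By line, CSF1R averaged 6.22 ± 0.22 at 72 h and 6.30 ± 0.04 untreated in knockout cells, and 7.18 ± 0.48 at 72 h and 6.38 ± 0.06 untreated in wild-type cells (SD, n = 3 each).

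Around IGF2BP2, 6 of 8 measured relatives and partners were lower and 0 higher, while LIN28A (0.13) and HMGA1 (−0.12) were not called. Lower genes included LIN28B, a blocker of let-7 maturation (−1.385), DICER1, the microRNA-processing nuclease (−0.95), and IGF1R, a growth factor receptor (−0.74). The related readers IGF2BP1 and IGF2BP3 were lower as well, by −0.46 and −0.70. With quantile normalization the changes were −0.24 for IGF2BP1, −0.42 for IGF2BP3, −0.67 for DICER1, −0.45 for IGF1R and −1.36 for LIN28B, all still called. The part of the narrower spread of signal on ATRA arrays, given below, in the falls of this list and the next was not tested. Of 13 measured m6A genes 12 were lower and 0 higher, and YTHDC1 (0.09) was not called. They included CBLL1, a writer subunit (−1.895), FTO, an eraser (−1.12), and YTHDF1, a reader (−1.01). With quantile normalization the m6A list stood at 1 higher and 10 lower, with CBLL1 at −1.65, FTO at −0.84 and YTHDF1 at −0.77.

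Of 13 other carbonic anhydrases, around CA2, 5 were higher and 2 lower. The counts were 3 and 1 with quantile normalization and 6 and 1 without the 4 arrays. CA8, a family member without catalytic activity, had the largest change (−2.66), followed by CA5B of mitochondria (−0.67) and CA4 of the cell surface (0.57). The CA5B call was lost in both of those alternatives (adjusted p = 0.0930 and 0.0713). Of 12 bicarbonate and proton carriers 2 were higher, SLC9A3 among them (0.50), and 2 lower, HVCN1, the proton channel of phagocytes (−1.78), and SLC4A7 (−0.55). The SLC4A7 call was lost with quantile normalization (adjusted p = 0.0634), and 3 genes of the list were higher without the 4 arrays. Of 10 other SLCO carriers 7 were higher and 2 lower, with SLCO4C1 (2.15) and SLCO5A1 (1.68) up and SLCO4A1 (−1.15) down. That list had 2 higher and 2 lower with quantile normalization, which removes the narrower spread of signal on ATRA arrays (SD of 2.12 to 2.28, against 2.39 to 2.40 on untreated arrays). Of 13 prostaglandin genes 8 were higher, led by the synthase PTGES (2.035) and the cyclooxygenase PTGS1 (1.975), and 3 lower, led by the receptor PTGER4 (−1.42).

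Around SLC7A2, 5 of 14 other SLC7 and SLC3 genes were higher and 4 lower, and 2 and 2 with quantile normalization. The largest changes were falls of SLC7A11, the cystine carrier (−1.39), SLC7A5, a carrier of large neutral amino acids (−1.25), and SLC7A6 (−1.19). The SLC7A11 call was lost with quantile normalization (−1.13, adjusted p = 0.109). Of 17 genes of arginine and polyamine metabolism 6 were higher and 6 lower, with ASS1, which makes the precursor of arginine (−2.285), SRM, spermidine synthase (−1.05), and AGMAT (−1.03) changing most. SLC7A1, the other main cationic carrier, was not called (−0.00). Its means lay on opposite sides of untreated in the 2 lines, which was not tested. By line, it averaged 10.73 ± 0.23 at 72 h and 10.48 ± 0.04 untreated in knockout cells. In wild-type cells it averaged 10.19 ± 0.36 at 72 h and 10.45 ± 0.04 untreated (SD, n = 3 each).

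**Figure D4:**
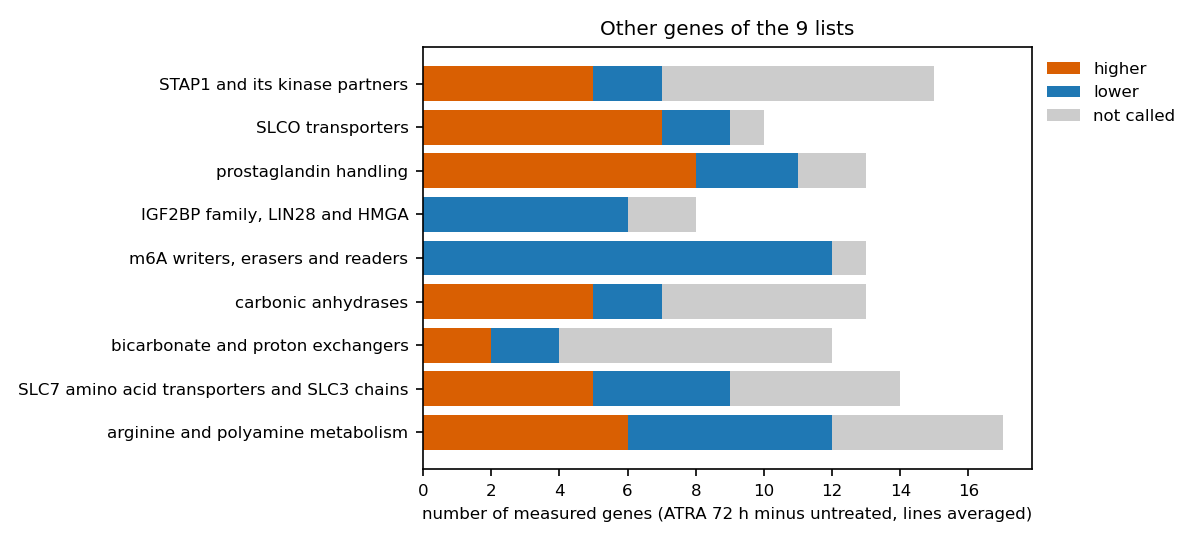
Number of measured genes (horizontal axis) of each of 9 lists, without the 5 genes themselves, that were called higher (orange), lower (blue) or not called (grey) for ATRA at 72 h minus untreated, averaged over the lines. The IGF2BP and m6A lists hold 6 and 12 lower genes and 0 higher ones, while the SLCO list holds 7 higher (2 with quantile normalization).

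Between the lines, no listed gene was called at any time, where 0.00601% of probe sets were called untreated, 0.021% at 48 h and 0.0961% at 72 h (limma, all 18 arrays). The spread shared by all groups is mostly wider than that of untreated arrays and narrower than that of ATRA arrays. The lack of an untreated call, for list genes or for the neighbours below, therefore does not show that the lines were alike. At an unadjusted p under 0.05 there were 1 (CA13), 9 and 17 of 115 list genes untreated, at 48 h and at 72 h, or 0.87%, 7.83% and 14.8%, against 1.15%, 5.92% and 11.2% of all probe sets. Of the 17 at 72 h, 3 picked after their values were seen are given: CSF1R differed by −0.95 ± 0.20 (adjusted p = 0.099), SLC7A5 by 1.03 ± 0.39 (adjusted p = 0.336) and IGF2BP3 by 0.47 ± 0.14 (adjusted p = 0.219). Without the 4 arrays named above, no list gene was called between the lines at 72 h. Calls at 48 h appeared for BTK, GRB2 and STAT5B (lower), HMGA1 and CA6 (higher), AZIN1 and OAZ1 (lower), and VIRMA and ZC3H13, 1 in each direction. These are 9 of 115 list genes (7.83%), in a fit that called 4.64% of all probe sets at 48 h and kept 1 knockout array there.

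Genes beside the 5 were also looked up. The 5 nearest measured genes on each side were taken from the RefSeq gene order, giving 50 neighbours, on chromosome 4 for STAP1, 15 for SLCO3A1, 3 for IGF2BP2 and 8 for CA2 and SLC7A2. None was called between the lines by limma, and 1, 1 and 6 had an unadjusted p under 0.05 untreated, at 48 h and at 72 h. These are 2%, 2% and 12% of the 50, against 1.15%, 5.92% and 11.2% of all probe sets. Their median difference was −0.00, 0.02 and 0.06, against −0.01, 0.01 and 0.01 for all probe sets. The adjacent genes were CENPC and UBA6 for STAP1, SV2B and ST8SIA2 for SLCO3A1, LIPH and IGF2BP2-AS1 for IGF2BP2, CA3 and REXO1L1P for CA2, and MTMR7 and PDGFRL for SLC7A2. In untreated cells, where STAP1 and SLCO3A1 differed most, CENPC and UBA6 differed by 0.17 ± 0.32 and −0.02 ± 0.22, and SV2B and ST8SIA2 by −0.35 ± 0.23 and 0.00 ± 0.15. E2F5, the fifth gene before CA2 and a cell cycle factor, had the largest value of the 50, 1.30 ± 0.31 at 72 h (adjusted p = 0.134); it was singled out after its value was seen. Without the 4 arrays, PRC1 and ASAH1 were called lower at 48 h, and RGMA and PCM1 were called at 72 h, 1 in each direction. That is 4% of the 50 neighbours at each time, against 4.64% of all probe sets at 48 h and 1.49% at 72 h in the same fit.

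**Figure D5:**
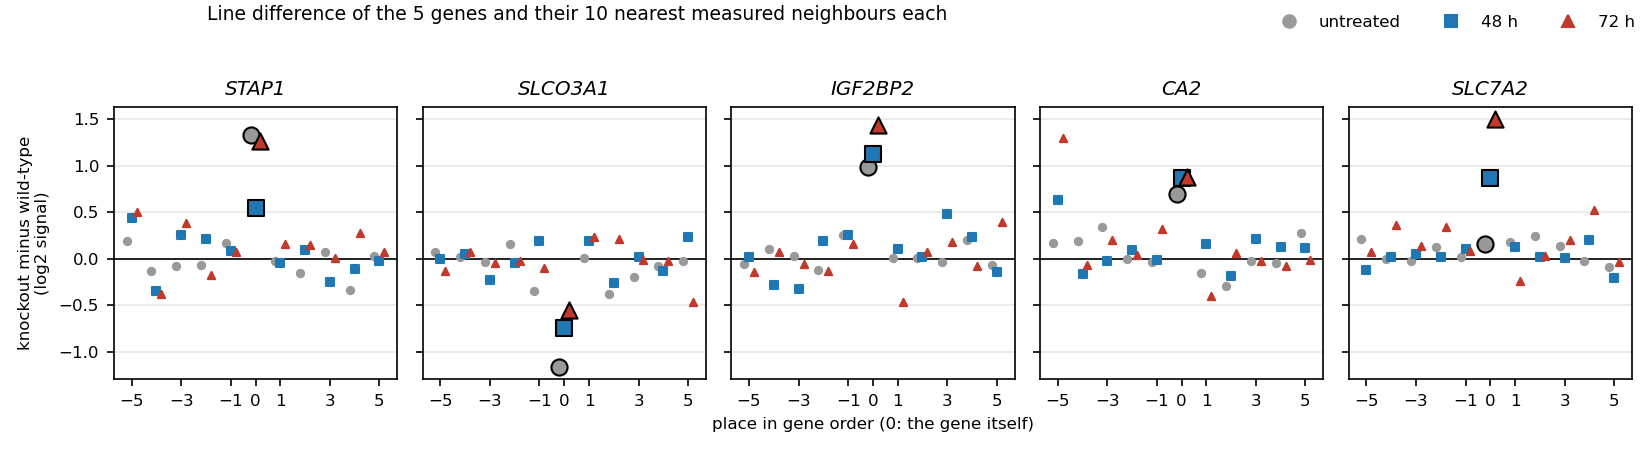
Knockout minus wild-type difference of log2 signal (vertical axis) for each gene (large symbols at 0) and its 10 nearest measured neighbours in gene order (horizontal axis), untreated (grey circles), at 48 h (blue squares) and at 72 h (red triangles). Neighbours lie between −0.47 and 0.63 apart from E2F5 at 1.30 in the CA2 panel at 72 h.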

How the data were processed

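Values deposited by the authors, 1 for each probe set on each array, were taken as log2 signal from their range (0.73 to 13.56), since their scale and normalization are not stated. Array medians ran from 6.12 to 6.26 and no further normalization was applied. The annotation gave 19460 probe sets 1 gene, 1754 several and 12083 none, and only the first kind was named.

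All 18 arrays and 33297 probe sets entered a linear model of the 6 group means in limma 3.58.1 in R 4.3.3 (eBayes with trend), after a test on simulated data. Calls have a Benjamini-Hochberg adjusted p under 0.05 over all probe sets, 2-sided. The spread is between replicates that the labels call biological, with no word on separate cultures.

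The members and lists were chosen with earlier results of these data known. The rule for names takes the 5 genes, TGM2, up to 3 called genes of each list with the largest change at 72 h of ATRA, list genes and neighbours called between the lines, the adjacent neighbours, and the 3 most alike profiles per gene. Other list genes named (IGF2BP1, IGF2BP3, CSF1R, KIT, SLC7A1, SLC7A5 between the lines, CA13, CTSG, LIN28A, HMGA1, YTHDC1) were chosen after their values were seen. The lists cover 161 genes with markers, and 149 of these were measured by a probe set of their own.

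Whether replicate numbers pair the arrays was checked by correlating deviations from group means. Numbers were taken to pair arrays where every r was over 0.1, which held for knockout against wild-type cells at 72 h (r of 0.103 to 0.160). It did not hold at 48 h (0.0890 to 0.196) or for wild-type cells at 48 against 72 h (0.0950 to 0.186), where r was also positive for every number. Alternatives were quantile normalization, median centring, leaving out the dimmest 30% of probe sets, testing single-gene probe sets alone, eBayes without trend or made robust, a replicate block, a fit of the compared arrays alone, array weights per group, the 4 arrays left out, and each array left out in turn.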

Additional observations from a re-analysis of the deposited data

How the results depend on the processing

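The fall under ATRA kept its direction and its call for all 5 genes at both times in all 28 alternatives, with adjusted p of at most 0.0122 at 48 h and 0.0275 at 72 h, both for IGF2BP2. Between 72 and 48 h, where nothing was called, leaving out the 4 arrays turned the signs of SLCO3A1 (0.053) and IGF2BP2 (−0.098), while SLC7A2 kept its sign and was called (0.64). With single arrays left out, SLCO3A1 ran between −0.079 and 0.013, IGF2BP2 between −0.012 and 0.18, CA2 between −0.086 and 0.022 and SLC7A2 between −0.054 and 0.29. Counts of probe sets called under ATRA were 18940 at 48 h and 19879 at 72 h, and 11446 and 11779 among probe sets of 1 gene. The 72 h minus 48 h count of 0 was 2723 without the 4 arrays and 0 to 10 with single arrays left out.

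Counts between the lines were unstable. Untreated, 2 probe sets became 1 with quantile normalization, 1 with the replicate block, 284 with only the compared arrays, 309 with array weights and 1 to 2 with single arrays left out. At 48 h, 7 became 3 with median centring, 2 without trend, 0 with only the compared arrays, 0 with array weights, 1546 without the 4 arrays and 1 to 13 (knockout 48 h replicate 3) with single arrays left out. At 72 h, 32 became 53 with quantile normalization, 0 with only the compared arrays, 14 with array weights, 495 without the 4 arrays and 11 (wild-type 72 h replicate 1) to 126 (wild-type 72 h replicate 2) with single arrays left out, and 91 and 81 without knockout 48 h replicate 2 and knockout 72 h replicate 2. The replicate block gave 29 there and changed no call of the 5 genes under ATRA. The cause of these shifts was not tested. Each gene has a single probe set, so another one could not be tried. Signal over background is unknown, so low signals may be understated in fold.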

Other observations

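In 61 genes, 25 higher and 36 lower in knockout than in wild-type cells, a probe set of their own kept the lines apart at all 3 times with the same sign. Ranked by the smallest of their 3 differences, IGF2BP2 ranked 1, CA2 2, SLCO3A1 5 and STAP1 6, but line differences chose these genes, so high ranks were built in. Between them stood KLRC3, a receptor of natural killer cells, with 0.77 untreated, 0.63 at 48 h and 1.22 at 72 h, and GJA1, the gap junction protein connexin 43, with 0.60, 0.96 and 0.97. KIF21A, a kinesin whose profile was also the nearest to that of STAP1, followed with 0.98, 0.52 and 0.80. These genes were singled out after their values were seen, and the differences are a description with no test.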
